A study of Mus musculus with 12 samples.

Results

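The sirtuins are the 7 genes Sirt1 to Sirt7, and their surroundings on the CTCF map of the mouse liver are described here. CTCF, a zinc finger protein, sits at insulators and at the anchors of chromatin loops, and ChIP-seq, which sequences the DNA that an antibody pulls down with a protein, located it in snap-frozen whole livers of wild-type male C57BL6/Ncrl mice, 3 to 4 months old, kept in 12 h of light and 12 h of darkness. Starved mice went without food for 24 h and their livers were taken at ZT13 (zeitgeber time, hours after lights on), while fed mice had normal chow at all times and their livers were taken at ZT16. Each state had 3 ChIP libraries, made with a Diagenode antibody, each with its own list of called peaks. All 7 genes were found among 21887 genes of the RefSeq annotation. Overlapping peaks (1 bp or more) of the 6 lists were joined, which gave 76061 sites, and 51 of these overlapped a sirtuin gene body or the 20 kb on either side of it. A library holds a site where at least 1 of its peaks is part of it.

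The starved lists held 30752, 23926 and 29866 peaks and the fed lists 56103, 49030 and 74950. The read depth of the libraries is unknown. The scores are the authors' own values for each peak. Feeding state and hour of collection changed together and cannot be told apart. In whole liver, fewer cells with CTCF at a site and less CTCF per cell cannot be told apart either. Whether the 3 libraries of a state stem from separate mice is not in the labels, so p-values cover no more than how far these libraries vary, and that may be technical variation. With 3 libraries against 3, an exact permutation test cannot go below p = 0.1. Peak lists hold no expression, so neither the liver label nor the transcript level of any sirtuin was checked here.

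Sirtuins are enzymes that remove acetyl and other acyl groups from proteins and use up NAD in doing so, which ties their activity to the energy state of the cell. In the liver they are known for the fasting response: Sirt1 deacetylates regulators of gluconeogenesis and fatty acid oxidation in the nucleus, and the mitochondrial sirtuins act on enzymes of ketone, fatty acid and nitrogen metabolism. Sirt6 and Sirt7 are nuclear and nucleolar and act on histones. Sirt2 is mostly cytosolic.

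The starts of the 7 genes differed in whether a peak lay over them, and promoter sequences of 5 of them and of Nol7 are shown as examples. RefSeq (GRCm38.p6, the same assembly as mm10) gives 9 promoter windows for them, each reaching from 250 bp before to 50 bp after a transcript start. The window of Sirt5 overlapped a peak in all 6 libraries. The window of Nol7, a gene for a nucleolar protein next to Sirt5, did so too. The Sirt1 window overlapped a peak in 1 starved library and all 3 fed libraries, the Sirt2 window in no starved and 2 fed libraries, and the Sirt7 window in no starved and 1 fed library. Both Sirt3 windows overlapped a peak in fed 3 alone. Neither the Sirt4 window nor the Sirt6 windows overlapped a peak in any library, and 1 Sirt6 window is printed for contrast. Capitals mark matches to CCCTC or, on the other strand, GAGGG, and in Nol7 also a match to a form of the CTCF core, which reads CCA, any 2 bases, AG, any 2 bases, GGC. Both strands were searched.
Sirt5, chr13:43365285-43365584, plus strand: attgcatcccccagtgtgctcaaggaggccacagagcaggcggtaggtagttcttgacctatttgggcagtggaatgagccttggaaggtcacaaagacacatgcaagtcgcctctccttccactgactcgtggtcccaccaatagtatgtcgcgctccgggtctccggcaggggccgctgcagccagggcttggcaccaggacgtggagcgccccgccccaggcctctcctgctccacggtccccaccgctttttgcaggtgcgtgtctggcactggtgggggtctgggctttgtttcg
Nol7, chr13:43398126-43398425, plus strand: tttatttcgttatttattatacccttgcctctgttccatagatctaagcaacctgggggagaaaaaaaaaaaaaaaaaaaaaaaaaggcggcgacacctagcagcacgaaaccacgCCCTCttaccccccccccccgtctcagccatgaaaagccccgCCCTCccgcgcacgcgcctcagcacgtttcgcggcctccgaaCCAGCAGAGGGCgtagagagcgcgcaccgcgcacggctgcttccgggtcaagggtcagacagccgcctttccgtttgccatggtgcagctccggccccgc
Sirt1, chr10:63338986-63339285, minus strand: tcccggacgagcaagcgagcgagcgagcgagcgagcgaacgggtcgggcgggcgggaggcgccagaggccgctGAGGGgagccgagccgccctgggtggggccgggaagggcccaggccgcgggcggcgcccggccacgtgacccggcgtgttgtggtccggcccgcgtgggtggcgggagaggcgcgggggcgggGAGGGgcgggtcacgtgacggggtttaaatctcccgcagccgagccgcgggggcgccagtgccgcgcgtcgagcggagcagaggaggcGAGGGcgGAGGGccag
Sirt2, chr7:28766502-28766801, plus strand: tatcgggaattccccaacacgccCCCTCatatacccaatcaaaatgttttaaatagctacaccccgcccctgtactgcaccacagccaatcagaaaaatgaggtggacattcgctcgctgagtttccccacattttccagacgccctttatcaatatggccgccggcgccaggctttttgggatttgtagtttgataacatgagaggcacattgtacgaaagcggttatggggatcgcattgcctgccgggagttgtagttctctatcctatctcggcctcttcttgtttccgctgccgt
Sirt7, chr11:120624965-120625264, minus strand: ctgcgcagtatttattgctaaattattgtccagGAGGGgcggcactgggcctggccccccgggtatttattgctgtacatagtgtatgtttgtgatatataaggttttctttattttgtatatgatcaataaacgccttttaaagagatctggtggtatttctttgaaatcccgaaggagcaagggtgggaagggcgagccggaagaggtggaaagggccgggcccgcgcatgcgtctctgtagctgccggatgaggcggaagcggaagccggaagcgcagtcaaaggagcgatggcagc
Sirt6, chr10:81627273-81627572, minus strand: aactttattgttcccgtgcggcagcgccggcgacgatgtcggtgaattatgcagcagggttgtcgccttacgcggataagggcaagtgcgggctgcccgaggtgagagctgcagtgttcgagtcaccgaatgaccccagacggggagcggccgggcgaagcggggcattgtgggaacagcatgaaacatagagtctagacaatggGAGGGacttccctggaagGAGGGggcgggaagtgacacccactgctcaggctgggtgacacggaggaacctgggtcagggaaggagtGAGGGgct

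None of the 9 sirtuin windows held the core on either strand, which says only that these letters are not in these windows. Of all 32851 promoter windows, 2.43% held it, and of the 1662 with a peak in all 6 libraries 14.7% did. The Nol7 match reads CCAGCAGAGGGC, lies at bases 201 to 212 of the printed window, and overlaps a GAGGG. The shorter CCCTC occurred in 7 of the 9 sirtuin windows, in 66.0% of all windows and in 76.7% of those with a peak in all 6 libraries. Sirt5, with a peak over its window in every library, had no match, and Sirt1 had 4. Of the Sirt3 windows, with a peak in fed 3 alone, 1 had 6 matches and the other had none. The Sirt6 windows, without a peak in any library, had 3 and 2.

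Starved libraries had a peak over 2, 1 and 1 of the 9 sirtuin windows, and fed libraries over 2, 3 and 6. For all promoter windows the shares were 9.26, 5.29 and 7.68% in starved libraries and 17.1, 15.6 and 26.3% in fed libraries. Of the sirtuin windows, those of Sirt1 and Sirt5 had a peak in all 3 fed libraries, and both had a starved peak. Over all windows with a peak in all 3 fed libraries, 31.2% had none in any starved library.

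Fewer sirtuin sites were called in starved than in fed libraries, with a ratio near that of all sites. Starved libraries held 18, 13 and 14 of the 51 sites, and fed libraries 28, 24 and 49. The groups did not overlap. The means were 15 ± 2.65 in starved and 33.7 ± 13.4 in fed libraries (SD, n = 3 each), a difference of −18.7 sites (exact permutation test, two-sided, p = 0.1). Without fed 3, the longest list, the difference was −11.7. The ratio of starved to fed was 0.446 for sirtuin sites and 0.463 for all sites, of which 27208 ± 3503 were called in starved and 58733 ± 13834 in fed libraries (SD, n = 3 each). Per 10000 sites called in the same library, starved libraries had 6.06, 5.60 and 4.87 sirtuin sites, and fed libraries 5.13, 5.06 and 6.61. These ranges overlapped (difference −0.0855, two-sided exact permutation p = 0.8), and no direction held over the other settings tried.

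The 51 sites ranged from fixtures of all libraries to peaks of a single list. All 6 libraries held 11 of the sites (21.6%), and each of the 7 genes had at least 1 of them. No site was called in a starved library without a peak in a fed library. Over all sites, 0.0999% were. Of the 51, 19 (37.3%) had a starved peak and 32 had none, where 42.8% of all sites had one. Fed 3 alone held 18 sites (35.3%), where it alone held 24.7% of all sites in the series. Across the genome, 29.1% of sites were called in all 6 libraries.

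**Figure D1:**
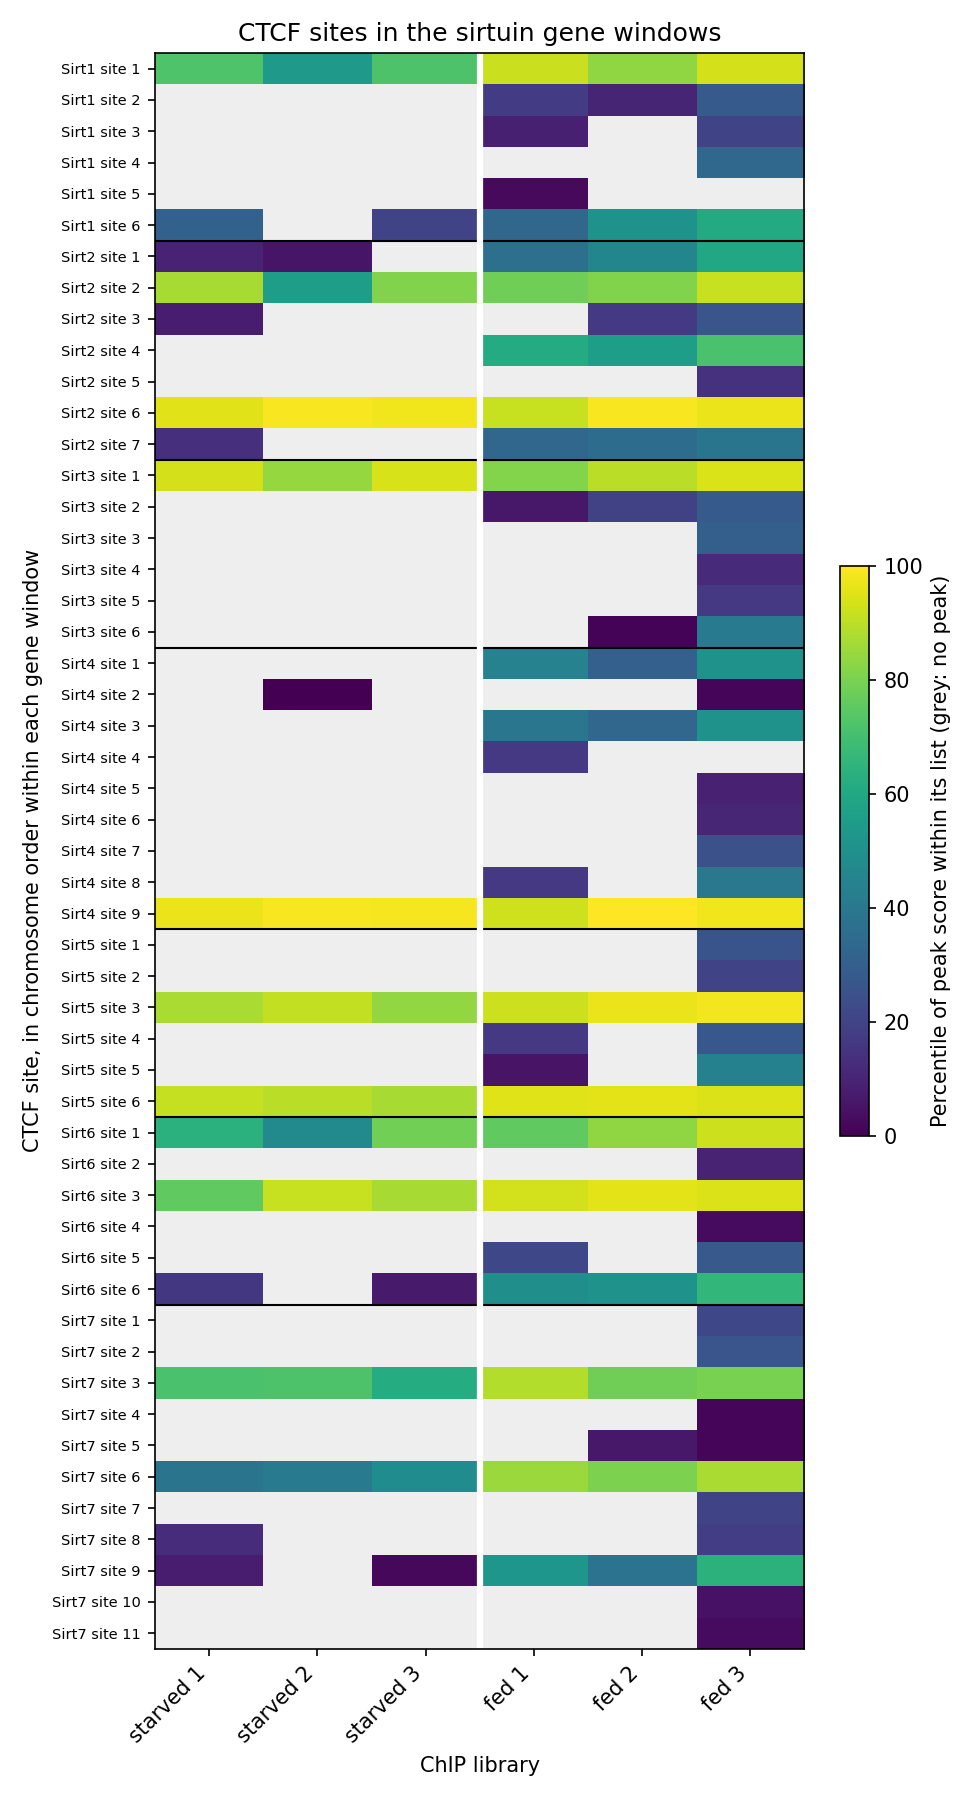
Each row is a CTCF site, numbered along the chromosome within its gene window, and each column a library, starved on the left and fed on the right. Colour gives the percentile of the peak's score within its own list (100 is the best) and grey means no peak. Of the 51 rows, 11 are coloured in all 6 columns, and 18 in the fed 3 column alone.

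A site called in all 3 fed libraries is termed a fed site, and 21 of the 51 were fed sites. Of these 21, 16 (76.2%) also had a starved peak, 11 (52.4%) had one in each starved library, and 5 (23.8%) had none. Over all 44909 fed sites, 29.1% had no starved peak and 49.3% had a peak in all 3 starved libraries. With fed 2 left out, 10 of 26 sirtuin sites and 39.5% of all sites called in both other fed libraries had no starved peak. All 11 sirtuin sites with a mean fed percentile above 70 were called in all 3 starved libraries, as were 99.1% of all fed sites in that band. Among the 7 between 40 and 70, 4 had some starved peak and none had it in all 3. Of all fed sites in that band, 76.1% had some starved peak and 29.4% had it in all 3.

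Most sites lay outside the genes that they flank, as did most of the searched sequence. The gene bodies spanned 6.01 kb (Sirt6) to 29.8 kb (Sirt5), and every window added 20 kb on either side. The counts by position therefore show no preference for the flanks. Of the 51, 38 lay outside the sirtuin gene, 10 inside it and 3 across an end of it, and 8 of the 11 sites in all 6 libraries were among the 38. Exons and introns are not given in the annotation used here. Sites with a midpoint within 1 kb of a sirtuin start numbered 8, at 6 of the 7 genes, all but Sirt6. At 4 genes, Sirt1, Sirt2, Sirt5 and Sirt7, such a site was a fed site.

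**Figure D2:**
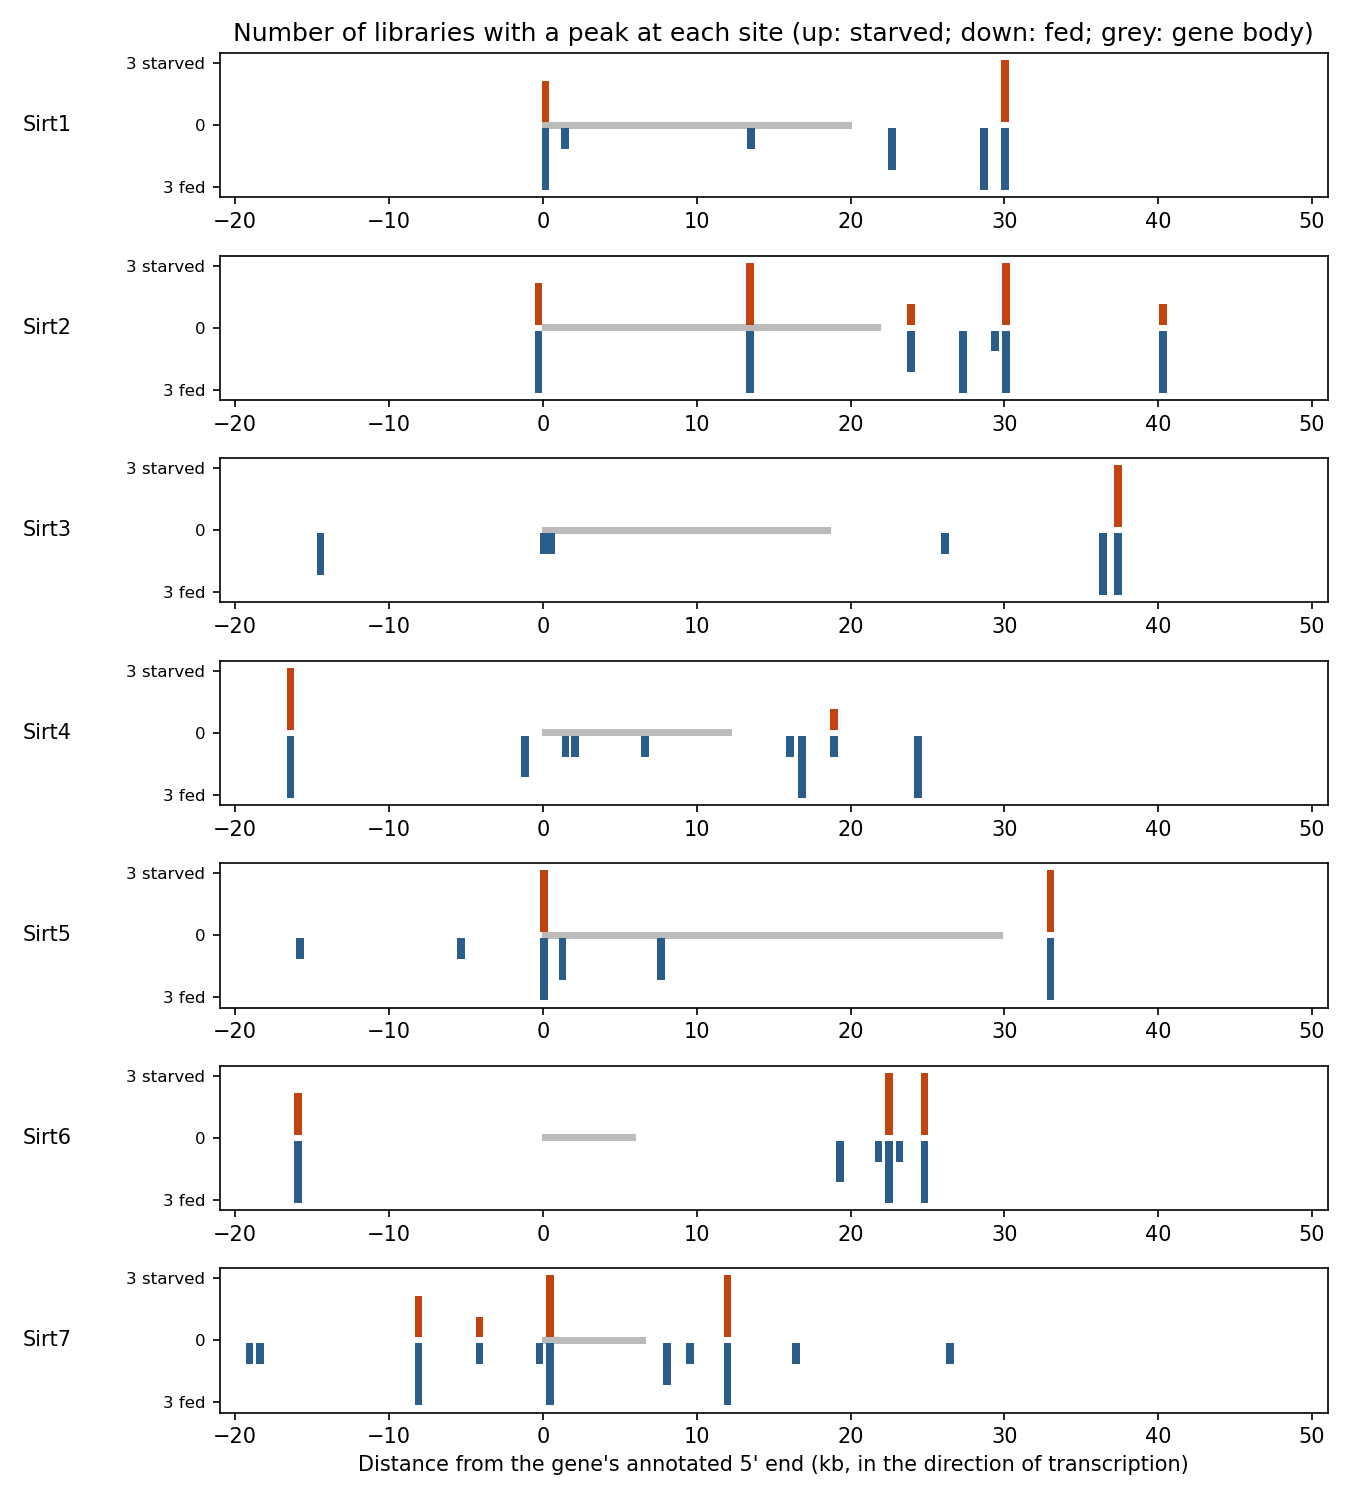
For each gene, bars stand at the midpoint of every site in its window, against the distance in kb from the annotated 5′ end of the gene in the direction of transcription. Bars pointing up count starved libraries with a peak (0 to 3), bars pointing down count fed libraries, and the grey band is the gene body. Sirt5 has 3 starved and 3 fed libraries at its start, and Sirt6 has no bar on its gene body.

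Sirt1, the nuclear deacetylase of the fasting response, had 6 sites. The site over its start (chr10:63338214-63339505) had score percentiles of 30.9 in starved 1 and 20.4 in starved 3, no peak in starved 2, and 32.9, 51.3 and 61.1 in the fed libraries. The best-ranked site lay beyond its 3′ end, inside Herc4, a ubiquitin ligase gene (chr10:63308425-63309557). It stood at 72.5, 54.1 and 72.2 in the starved libraries and 91.9, 83.3 and 93.4 in the fed libraries. Since the lists differ in length, these percentiles are places within each list and show no change between lists. Close by, at chr10:63310170-63310524, a fed site at 17.9, 10.5 and 28.5 had no starved peak. The other 3 sites, of which 2 lay inside the gene, had no starved peak and were called in 1 or 2 fed libraries.

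Sirt6, which deacetylates histone H3 and restrains glycolytic genes, had 6 sites and none on its gene body. Its pair of strong sites lay 24.3 and 22.1 kb from the nearest start, beyond the 3′ end and outside any annotated gene. The nearer of them (chr10:81604814-81605731) stood at 75.6, 91.7 and 86.9 in starved and 93.3, 95.7 and 94.6 in fed libraries. The farther (chr10:81602559-81603410) stood at 63.9, 47.5 and 78.8 in starved and 75.6, 83.4 and 92.5 in fed libraries. Both were thus in the upper part of nearly every list, with starved 2 at the farther site just below the middle. Upstream, a site inside Ankrd24 (chr10:81643077-81644322) stood at 16.4 in starved 1 and 7.38 in starved 3, had no peak in starved 2, and stood at 49.9, 50.8 and 66.1 in fed libraries.

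Sirt7, a nucleolar deacetylase linked to ribosomal RNA transcription, had the most sites of the family, 11, of which 6 were called in fed 3 alone. A site inside the gene, centred 0.478 kb after its start and covering the miRNA gene Mir6936 (chr11:120624125-120624948), was called in all 6 libraries. It came close to the promoter window (chr11:120624965-120625264) without reaching it. It stood at 38.5, 41.1 and 48.6 in starved libraries and 84.8, 80.3 and 87.2 in fed libraries, near the middle of the starved lists and in the upper part of the longer fed lists. The second site in all 6 libraries lay inside Pcyt2, a gene of phosphatidylethanolamine synthesis (chr11:120612449-120613569), at 71.4, 72.1 and 61.8 in starved and 88.7, 78.4 and 79.8 in fed libraries. Inside Mafg, a small Maf transcription factor gene upstream of Sirt7, the site chr11:120632794-120633380 stood at 7.55 in starved 1 and 2.05 in starved 3. It had no peak in starved 2 and stood at 52.7, 38.2 and 64.3 in the fed libraries.

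Sirt2, the mostly cytosolic sirtuin known as a tubulin deacetylase, had 7 sites. Just upstream of its start, the merged site chr7:28766263-28766661 reached the start of Nfkbib, an NF-kappa-B inhibitor gene on the opposite strand. It was called in 2 starved and 3 fed libraries. The Nfkbib promoter window itself overlapped a peak in fed 2 and fed 3 and in no starved library. The merged site stood at 9.56 and 5.78 in starved 1 and 2 and at 36.8, 45.8 and 60.0 in fed libraries. A site inside the gene (chr7:28779639-28780776) stood at 86.8, 56.1 and 81.0 in starved and 78.1, 81.1 and 91.7 in fed libraries. The best-ranked site lay beyond the 3′ end inside Rinl (chr7:28796459-28797295), at 95.5, 99.0 and 97.9 in starved and 91.7, 99.1 and 97.0 in fed libraries. No list placed it below 91.7. Between these, over the tRNA gene n-TKctt24, the site chr7:28793855-28794227 had no starved peak and stood at 61.4, 55.8 and 71.3 in fed libraries.

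Sirt3, the main deacetylase of the mitochondrial matrix, had 6 sites, and just 1 had a starved peak. That site lay 36.9 kb from its start over the noncoding gene C330022C24Rik (chr7:140844519-140845367), at 93.4, 84.2 and 94.0 in starved and 81.6, 89.7 and 94.4 in fed libraries. Its neighbour at Scgb1c1, a secretoglobin gene (chr7:140845742-140846064), stood at 6.53, 19.6 and 28.5 in fed libraries and had no starved peak. At the start of Sirt3, next to that of the proteasome subunit gene Psmd13, fed 3 alone had peaks, at percentiles of 11.8 and 16.5.

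Sirt4, a mitochondrial sirtuin known to inhibit glutamate dehydrogenase, had 9 sites. The best-ranked of them lay upstream inside Pxn, the gene of the focal adhesion protein paxillin (chr5:115506267-115507074), at 96.9, 99.1 and 98.8 in starved and 92.9, 99.8 and 97.9 in fed libraries. Both fed sites without a starved peak lay beyond its 3′ end near Pla2g1b, a secreted phospholipase gene. They were chr5:115465672-115466096, at 44.3, 30.6 and 51.2 in fed libraries, and chr5:115473179-115473674, at 39.3, 32.9 and 51.2. Inside Sirt4, the 3 sites were called in fed 3 alone, at percentiles between 9.02 and 24.6.

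Sirt5, the mitochondrial desuccinylase, was the member with a peak over its promoter window in all 6 libraries. The site over its start (chr13:43364913-43366056) stood at 87.2, 90.9 and 83.9 in starved and 92.6, 97.1 and 98.4 in fed libraries. The site over the start of Nol7 (chr13:43397910-43398864) stood at 91.4, 89.5 and 86.8 in starved and 95.1, 96.0 and 94.7 in fed libraries. Neither site was below 83.9 in any list. The other 4 sites had no starved peak and were called in 1 or 2 fed libraries.

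Counted by gene, 3 of the 7 sirtuins had fewer sites in every starved library than in any fed library, where 59.1% of the 18094 genes with a site did. Sirt1 had 2, 1 and 2 sites in starved and 5, 3 and 5 in fed libraries. Sirt3 had 1, 1 and 1 in starved and 2, 3 and 6 in fed libraries, and Sirt4 had 1, 2 and 1 in starved and 5, 3 and 8 in fed libraries. For these 3 the two-sided exact permutation p was 0.1 and the p adjusted over all genes (Benjamini-Hochberg) 0.169. That adjusted value, the lowest of any gene, was shared by all 10688 genes at the smallest p. Without fed 2, the number was 5 of 7, where 72.8% of all genes did. None of the 3 calls held at a stricter score limit, the median score of all peaks: the difference was then −1 site at Sirt1 (exact permutation p = 0.3) and 0 at Sirt3 and Sirt4, and the 3 genes without overlap were Sirt2, Sirt6 and Sirt7, where 51.3% of all genes met the rule.

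In the other 4 the groups touched or overlapped. Sirt2 had 5, 3 and 2 sites in starved and 5, 6 and 7 in fed libraries, and Sirt6 had 3, 2 and 3 in starved and 4, 3 and 6 in fed libraries. Sirt5 had 2 in every starved library, against 4, 2 and 6 in fed libraries. Sirt7 had 4, 2 and 3 in starved and 3, 4 and 11 in fed libraries, so that its mean difference of −3 sites was −0.5 without fed 3. The unadjusted exact permutation p for these 4 lay between 0.2 and 0.5. The median difference was −2.67 sites over the sirtuins and −2 over all genes with a site. Sirtuin windows held more sites to begin with, a median of 6 per window against 4 over all genes, those without a site included. This was not particular to the sirtuins. The median was 6 for the genes of NAD metabolism, 7.5 for sirtuin substrates and partners and 8 for the Hdac genes, all described further below.

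**Figure D3:**
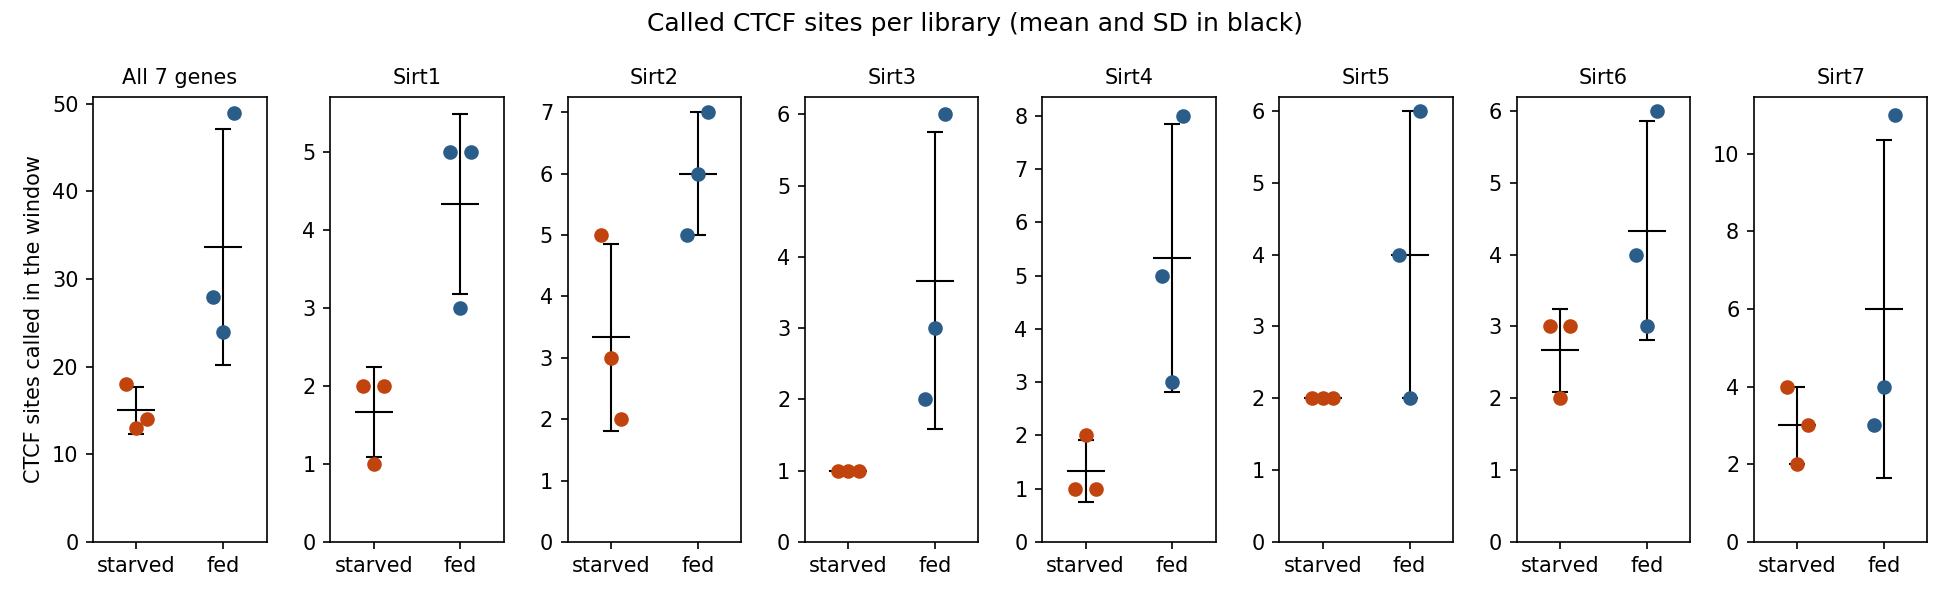
Points are libraries (3 starved, 3 fed) and the vertical axis is the number of CTCF sites called in the window of all 7 genes together or of each gene, with the mean and SD in black. All 7 genes together give 13 to 18 in starved and 24 to 49 in fed libraries, and the groups overlap or touch in Sirt2, Sirt5, Sirt6 and Sirt7.

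With lists of equal length the groups had the same number of sirtuin sites. For this, every list was shortened to its top 23926 peaks by score, as many as starved 2 held. Of 15 sirtuin sites left, starved lists held 12, 13 and 12 and fed lists 12, 13 and 12. Of all sites, starved lists held 23445, 23207 and 23378 and fed lists 23768, 23694 and 23870. Cutting every list to the same length makes such totals nearly equal, so the equal counts are no trait of the sirtuins. The 11 sites of all 6 full lists remained in all 6. Of 12 fed sites in the shortened lists, 1 had no starved peak, where 1.20% of all fed sites had none. It was the site over the tRNA gene beyond Sirt2, at percentiles of 9.53, 9.42 and 10.1 in the shortened fed lists.

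Within lists of equal length the ranks of 3 of these 11 sites separated the groups. The site inside Sirt7 stood at 21.0, 41.1 and 35.9 in starved and 64.4, 59.7 and 59.8 in fed lists, and the Herc4 site of Sirt1 at 64.6, 54.1 and 65.3 in starved and 81.0, 65.7 and 79.4 in fed lists. Both were lower in every starved list. The site beyond Sirt3 was higher in every starved list, at 91.5, 84.2 and 92.5, against 56.9, 78.9 and 82.4 in fed lists. So 2 of 11 were lower and 1 of 11 higher, where of all 19291 sites in the 6 shortened lists 7.76% were lower and 7.26% higher.

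The difference in means was −28.6 percentile points at the Sirt7 site (32.7 ± 10.4 in starved and 61.3 ± 2.71 in fed lists, SD, n = 3 each), −14.0 at the Sirt1 site and 16.6 at the Sirt3 site. Each had the smallest two-sided exact permutation p, 0.1, and a p of 0.666 after Benjamini-Hochberg adjustment over all sites. Of all 19291 sites, 0.897% had a difference as low as that of the Sirt7 site, 11.0% one as low as that of the Sirt1 site and 5.46% one as high as that of the Sirt3 site. Leaving out 1 library at a time, the difference lay between −30.2 and −22.8 at the Sirt7 site. It lay between −18.8 and −8.33 at the Sirt1 site, with −8.33 without starved 2, and between 8.74 and 21.5 at the Sirt3 site, with 8.74 without fed 1. At the Sirt5 start the difference was −5.79 points, with overlapping groups and an exact permutation p of 0.3. Without fed 1 it was −9.78, and the groups did not overlap, where 26.0% of all sites separated the groups in that setting. Over the 11 sites the median difference was −0.554 points, against −0.204 over all sites. Without fed 2, 5 of the 11 sites and 26.2% of all sites separated the groups.

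**Figure D4:**
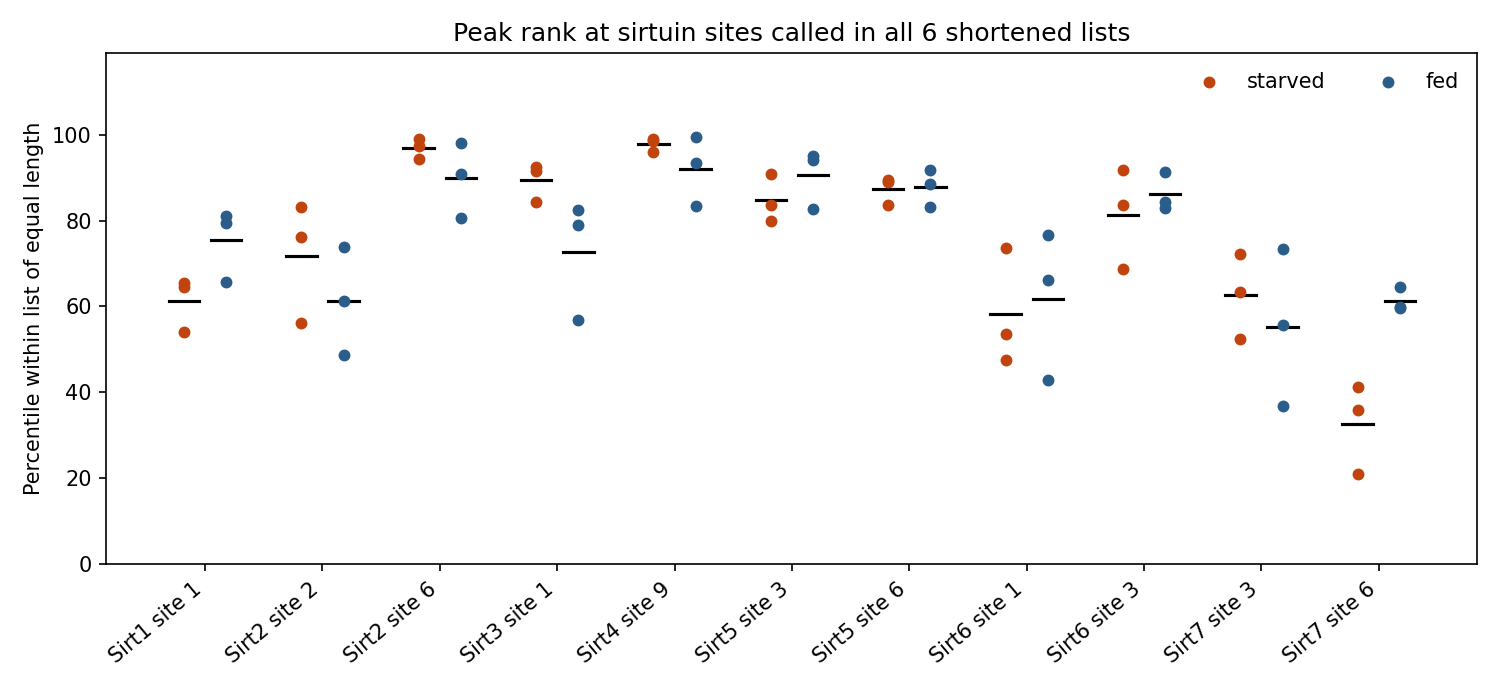
For the 11 sirtuin sites in all 6 shortened lists, points give the percentile of the peak within the 23926 best-scored peaks of each library, starved to the left of fed, with the mean as a black line. At Sirt7 site 6, inside the gene, the starved points lie between 21.0 and 41.1, below the fed points, between 59.7 and 64.4.

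Called peaks were narrower in starved libraries at most sirtuin sites and at most sites of the genome. Where a library had several peaks in a site, their widths were summed. At 9 of the 11 sites in all 6 libraries every starved peak was narrower than every fed peak, where 90.4% of all 22131 such sites met that rule. Over the Sirt5 start the peaks spanned 834, 334 and 608 bp in starved and 944, 984 and 1144 bp in fed libraries. Inside Sirt7 they spanned 621, 336 and 581 bp in starved and 798, 813 and 782 bp in fed libraries. The groups overlapped at the site inside Sirt2, with 759, 430 and 792 bp in starved and 977, 713 and 1133 bp in fed libraries, and at the Pxn site of Sirt4, with 591, 314 and 333 bp in starved and 711, 537 and 808 bp in fed libraries. Starved 2, the shortest list, had the narrowest peak at all 11.

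The ratio of mean widths, starved over fed, ran from 0.455 at the Nol7 site to 0.740 at the Rinl site, with a median of 0.602 over the 11 sites and 0.503 over all sites. At the 9 sites the two-sided exact permutation p was 0.1 and the Benjamini-Hochberg p over all sites 0.111. The median width of all peaks was 352, 247 and 290 bp in starved and 385, 374 and 352 bp in fed libraries. Its part in the widths at the sirtuin sites was not tested.

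**Figure D5:**
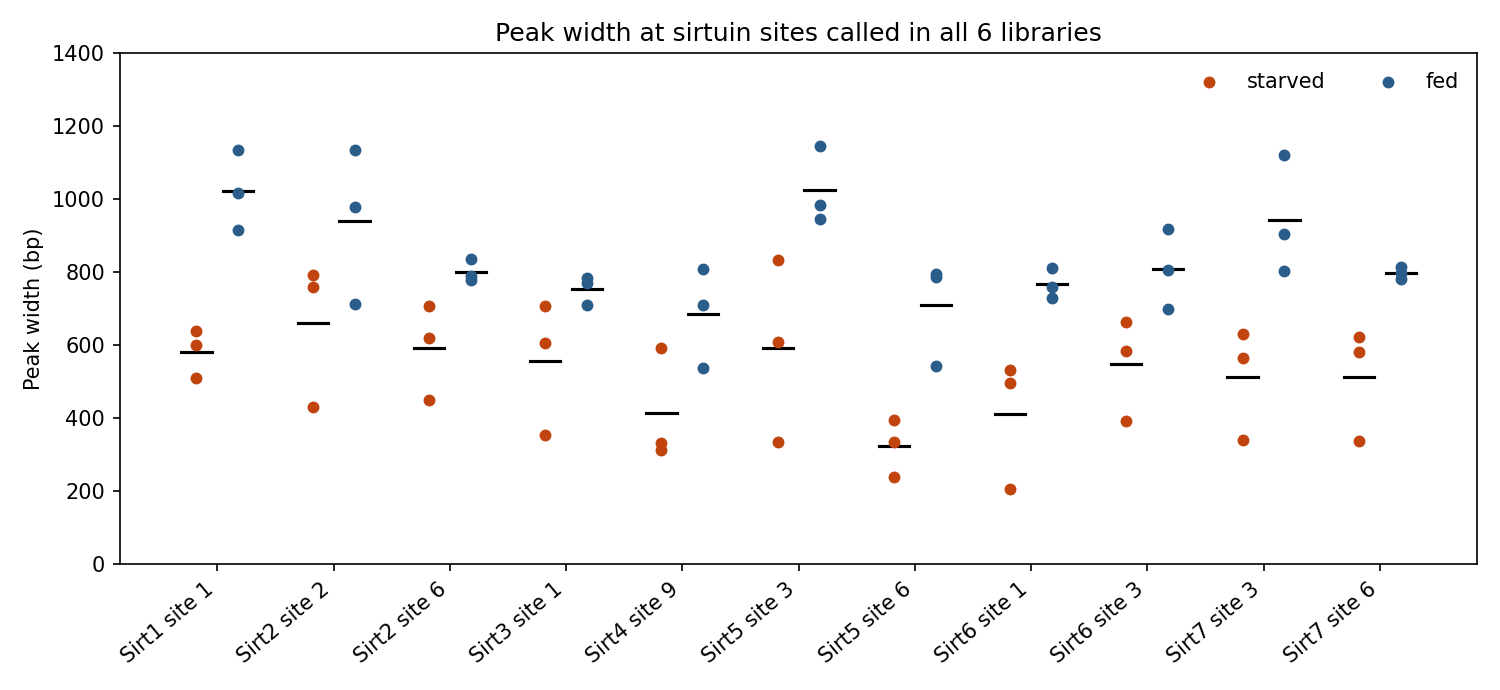
Points give the width in bp of the called peak at the 11 sirtuin sites in all 6 libraries, starved to the left of fed, with the mean as a black line. Widths are summed where a library had several peaks in a site. The starved points lie below the fed points at 9 sites and overlap with them at Sirt2 site 2, inside the gene, and Sirt4 site 9, inside Pxn.

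By the best-ranked peak in the window, the order of the genes was Sirt4, Sirt2, Sirt5, Sirt6, Sirt3, Sirt1 and Sirt7, with medians over the 6 libraries of 98.3, 97.5, 93.3, 92.5, 91.5, 77.9 and 76.2. The ranges over libraries of neighbours in this order overlapped, and no order among neighbours is drawn from it. Sirtuin windows held a median of 1.13 sites per 10 kb, against 0.549 over all genes. It was 0.879 for the genes of NAD metabolism, 1.01 for sirtuin substrates and partners and 0.861 for the Hdac genes. The percentile of the best-ranked peak over all genes with a site had medians of 70.5, 62.7 and 69.6 in starved libraries. In fed libraries these medians were 84.0, 81.5 and 88.1. Likeness was measured as the mean absolute difference of this percentile over the 6 libraries, among genes that share no site. Sirt2 and Sirt4 were each other's closest gene, at 0.836 percentile points. The closest gene was Flywch1 for Sirt6 (0.782), Jup, the plakoglobin gene, for Sirt5 (0.786), Clybl for Sirt1 (1.34), Col25a1, a collagen gene, for Sirt7 (1.42) and Fcrl1 for Sirt3 (1.69).

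The share of fed sites without a starved peak was also counted around genes of NAD metabolism and of deacylation. In the windows of 28 genes of NAD metabolism, 27 of 114 fed sites (23.7%) had no starved peak, and in those of 28 sirtuin substrates and partners 37 of 120 (30.8%). Around the 11 zinc-dependent deacetylases, the Hdac genes, it was 20 of 56 (35.7%). Beside the 23.8% of the sirtuins (5 of 21) and 29.1% of all fed sites, these are descriptions, with no test. The fed sites also differed in rank. Their median fed percentile was 82.3 at the sirtuins, 62.2 at the NAD genes and 56.3 at the substrates and partners. It was 53.3 at the Hdac genes and 61.0 over all fed sites. Every starved count lay below every fed count in 14 of the 28 NAD genes, 17 of the 28 substrates and partners and 8 of the 11 Hdac genes, where 59.1% of all genes with a site met that rule. No gene of the genome met the opposite rule.

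Among the NAD genes, the best-ranked fed sites with no starved peak lay at Nadsyn1, the NAD synthetase (mean fed percentile 50.5), Naprt, which starts NAD synthesis from nicotinic acid (50.4), Parp2, an NAD-consuming repair enzyme (47.4), and Nnmt, which methylates nicotinamide (44.5). Nmnat2 (42.3) and Nmnat1 (38.7), enzymes of NAD synthesis, followed. Nampt, the rate-limiting enzyme of NAD salvage, had 3, 1 and 1 sites in starved and 3 in every fed library. The strongest sites in all 6 libraries lay at Afmid, Haao and Nadk2, with mean percentiles of 94.5, 90.1 and 91.6 in starved and 96.6, 96.2 and 96.0 in fed libraries.

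Among substrates and partners, Ppargc1a, the coactivator that Sirt1 deacetylates in the fasted liver, had 5, 3 and 3 sites in starved and 14, 12 and 17 in fed libraries. Its window is long, 702 kb against 46.0 to 69.8 kb for the sirtuins. It held 0.242 sites per 10 kb, where the median over all genes was 0.549. Fewer sites in every starved library were found at 59.1% of all genes with a site. The best-ranked fed site of Ppargc1a without a starved peak had a mean fed percentile of 54.1. Such sites also lay at Ppara, Elk4, Trp53, Pdha1 and Crtc2, at mean fed percentiles between 40.5 and 52.3. Trp53 also held the strongest site of this list in all 6 libraries, at a mean percentile of 99.8 in starved and 99.2 in fed libraries. Of the Hdac genes, Hdac9 (49.1), Hdac7 (44.2) and Hdac10 (41.4) had the best-ranked fed sites without a starved peak, by mean fed percentile.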

How the data were processed

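CTCF ChIP-seq of snap-frozen whole livers was analysed from 6 deposited peak lists, 3 starved and 3 fed, grouped by sample title; the inputs were not analysed here. The submitters' processing notes name HOMER, MACS2, bedtools 2.17, SAMtools, BWA 0.7.5a and FastQC and the build mm10, without their roles. Each list gave a position and a score per peak, deposited per library; for the score's meaning and threshold, the use of inputs and the depth, the sources used here give nothing. The lowest score lay between 2.00 and 2.10 in every list. Scores were ranked within each list as percentiles.

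Gene positions and promoter sequences came from RefSeq, GRCm38.p6, counted from 1. Peaks were merged at 1 bp of overlap. Site counts per library, sites per gene, ranks in lists of equal length and peak widths were compared by two-sided exact permutation over 20 labellings, across all genes or sites with Benjamini-Hochberg adjustment and a threshold of 0.05. The text names every sirtuin site group, genes overlapped by those sites, up to 6 genes per list by mean fed percentile of a fed site without a starved peak, the 3 strongest sites in all 6 libraries, and the closest gene to each sirtuin. Nampt was named after its values were seen. Members and lists were chosen with earlier results of these data known. The tests were checked on simulated data. Python 3.11.15, numpy 2.4.6, pandas 2.3.3 and matplotlib 3.10.9 were used.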

Additional observations from a re-analysis of the deposited data

How the results depend on the processing

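The lower number of sirtuin sites in starved libraries (−18.7) kept its direction under every alternative run except lists of equal length, where the difference was 0. Leaving out 1 library gave −23.5 to −11.7. Relative to 10000 called sites (−0.0855), the sign turned at a stricter score limit (1.74, exact permutation p = 0.1), with equal lengths (0.0968), peaks trimmed to 200 bp (0.259), merging within 500 bp (0.289) and gene bodies alone (0.0964), and without starved 3 or fed 3 (range −0.359 to 0.389). Of the sirtuin fed sites, 5 of 21 had no starved peak (29.1% over all sites). This was 12 of 29 with 2 of 3 fed libraries required (41.6%), 3 of 13 at the stricter limit (35.6%) and 1 of 12 with equal lengths (1.20%). On gene bodies it was 0 of 4, within 5 kb 1 of 8 and within 50 kb 13 of 52, against the same 29.1%. Leaving out 1 library gave 5 to 10, against 29.6 to 39.5%. Of the 7 genes, 3 had fewer sites in every starved library (59.1% over all genes). This was 0 with equal lengths (1.63%), 0 on gene bodies (40.02%), 1 within 5 kb (45.4%) and 7 within 50 kb (74.6%). Leaving out 1 library it was 3 to 5, where 59.5 to 72.8% of all genes met the rule. It was 2 with peaks trimmed to 200 bp (58.0%), where Sirt1 lost its call, and 2 with merging within 500 bp (56.5%), where Sirt3 did. With equal lengths the differences at Sirt1 and Sirt4 turned to 0.333 sites. The cause of these changes was not tested. Leaving out libraries, the stricter limit, trimming and merging were added for the counts per gene after seeing the data. In lists shortened to 11963 peaks, 7 sirtuin sites were left and the ranks of 2 separated the groups (12.7% over all sites). The Sirt7 site was no longer among them, and the differences at Sirt1 (−28.0) and Sirt3 (33.3) were larger since each percentile of a shorter list spans fewer peaks. With 1 library left out, the equal-length ranks of 3 to 5 sites separated the groups, against 24.7 to 27.8% of all sites. Every starved peak was narrower at 9 of 11 to 11 of 11 sites, and at 12 of 14 without starved 2. Of all such sites, 90.1 to 98.6% met that rule. The rank difference changed sign on leaving out 1 library at the Nol7 site of Sirt5 (−2.87 to 1.40), both strong Sirt6 sites (−13.1 to 3.80 and −8.06 to 1.47) and the Pcyt2 site of Sirt7 (−1.92 to 16.4).

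The labels number the libraries 1 to 3 in both groups. Deviations from the group means correlated by −0.0105, 0.0944 and 0.0630 between same-numbered libraries, so the numbers were not taken as pairs. With a replicate block the difference was −18.7 sites (exact sign-flip p = 0.25) and −0.0855 per 10000 sites (p = 1), and 4 of 7 genes had fewer sites in each starved library than in the fed library of the same number, where 67.2% of all genes did. Read depth is unknown.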

Other observations

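The fed site over the tRNA gene beyond Sirt2 was singled out after its values were seen. Its mean fed percentile was 62.8, against a median of 33.4 over the 13072 fed sites without a starved peak, of which 22 (0.168%) ranked as high. Of the 21409 fed sites at or above that percentile, 0.103% had no starved peak. The RefSeq annotation places 408 tRNA genes, and 51 fed sites of the series overlap them. Of these 51, 10 (19.6%) had no starved peak, against 29.1% of all 44909 fed sites, and their median fed percentile was 77.8. These are counts without a test.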
